A study of Mus musculus with 15 samples.

Results

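The genes described here encode the proteins of the cytosolic ribosome in the mouse large intestine. They were chosen by name: protein-coding genes whose symbol is Rpl or Rps with a number, or Rpsa, Rplp0, Rplp1, Rplp2 or Fau, without the Rps6k kinases and without pseudogenes. Of 87 genes that match, 82 had a value in every one of the 15 libraries, out of 42988 genes of all kinds with such a value. The remaining 5 (Rpl13a, Rpl13, Rpl19, Rpl24 and Rps14) had no value in any library and were not analysed here. The 82 comprised 73 standard ribosomal protein genes, 31 of the small subunit and 42 of the large subunit, 8 paralogs that are second copies of a standard gene, and Rps19bp1, whose symbol fits the naming rule although its protein binds Rps19 and is not part of the ribosome.

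The libraries came from male C57Bl/6 mice aged 4 weeks that were gavaged on 3 consecutive days, 24 h apart, and whose tissue was taken 12 h after the last gavage. There were 5 groups of 3 libraries. All groups received the carrier, Cremophor EL (spelled Chremophor in the labels) with 10% DMSO, and the vehicle group received nothing else. The cymopol groups received 1.4 mmol/kg (high dose) or 0.3 mmol/kg (low dose), and the extract groups received a non-polar (NP) algal extract at 1.0 g/kg (high dose) or 0.3 g/kg (low dose). Cymopol is a brominated natural product of a green alga. The labels number the libraries by replicate (2, 4 and 5 for vehicle, for example), and those numbers are used below. Nothing in the sources used here says whether the 3 libraries of a group are 3 separate mice, so the p-values cover the spread between these libraries and no more.

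A ribosome is built from ribosomal RNA and about equal numbers of copies of each ribosomal protein, which are made in the cytoplasm, imported into the nucleolus and assembled there. Ribosomal protein mRNAs are among the most abundant in dividing tissues such as the intestinal epithelium. Most begin with a C followed by a run of C and T, the terminal oligopyrimidine (TOP) motif, through which mTORC1 and the protein Larp1 control their translation. Many of the genes also carry small nucleolar RNAs (snoRNAs), guides for the modification of ribosomal RNA, inside their introns.

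The TOP motif was sought in RefSeq promoter sequences (GRCm38.p6, 250 bases before to 50 bases after each annotated start). A C at the first transcribed base followed by at least 4 C or T was counted, on the gene's own strand. The table held 63 of the 82 genes, and 15 of these (23.8%) had the motif exactly at an annotated start, against 3.01% of all 27025 genes in the table. Within 5 bases of a start the shares were 46.0% and 21.2%. The motif is defined by the exact first base, so an annotated start that lies a few bases off would hide it. How often that applied to these genes was not tested. Allowing 5 bases also raised the share over all genes, from 3.01% to 21.2%. The following windows of 30 bases, 15 before and 15 from the annotated start on, 5′ to 3′, are shown for genes whose values are described below, with the pyrimidine run in capitals.
Rpl35a (chr16:33056467-33056496, plus strand): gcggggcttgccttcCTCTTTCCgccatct
Rpl15 (chr14:18270972-18271001, minus strand): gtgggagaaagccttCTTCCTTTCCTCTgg
Rpl35 (chr2:39005117-39005146, minus strand): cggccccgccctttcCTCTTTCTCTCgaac
Rps21 (chr2:180257364-180257393, plus strand): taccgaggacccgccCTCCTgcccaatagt
Fau (chr19:6057932-6057961, plus strand): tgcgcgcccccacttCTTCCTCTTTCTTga
Rplp2 (chr7:141447636-141447665, plus strand): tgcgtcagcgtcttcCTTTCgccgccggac
Rps27 (chr3:90213634-90213663, minus strand): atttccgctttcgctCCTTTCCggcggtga
Rps27rt (chr9:114982725-114982754, minus strand): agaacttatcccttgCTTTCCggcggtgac
Rps27 and its paralog Rps27rt share a stretch of first transcribed bases on different chromosomes, whereas the bases before the start differ. For Rps27, on chromosome 3, the median over the 15 libraries was 13.0 FPKM (fragments scaled by transcript length and by library size, a level per length). Rps27rt was listed at 0 in 13 of 15 libraries and reached 1.77 FPKM at most.

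The level of the standard genes varied widely among the libraries of a single group, the vehicle included. Their median was 2.27, 40.4 and 12.9 FPKM in vehicle libraries 2, 4 and 5. It was 33.3, 68.6 and 32.7 FPKM in high-dose cymopol libraries 11, 12 and 14, and 8.41, 21.3 and 44.0 FPKM in low-dose cymopol libraries 33, 34 and 35. It was 31.5, 58.0 and 22.5 FPKM in high-dose extract libraries 21, 23 and 25, and 0.781, 21.8 and 24.7 FPKM in low-dose extract libraries 26, 27 and 29. Vehicle library 4 lay above 4 of the 6 high-dose libraries, while vehicle libraries 2 and 5 lay below all 6. Of the 73 genes, 15, 3 and 15 were listed at 0 in vehicle libraries 2, 4 and 5. The numbers were 20, 11 and 1 in low-dose cymopol libraries 33, 34 and 35. They were 25, 1 and 6 in low-dose extract libraries 26, 27 and 29 and at most 1 in any high-dose library. Of these zeros, 9, 1 and 7 in vehicle, 8, 5 and 0 in low-dose cymopol and 11, 1 and 2 in low-dose extract stood under the gene's own identifier. In each high-dose library 0 did. The other zeros were those of an assembled locus matched to the gene by position. The part of this difference in the zeros was not tested.

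**Figure D1:**
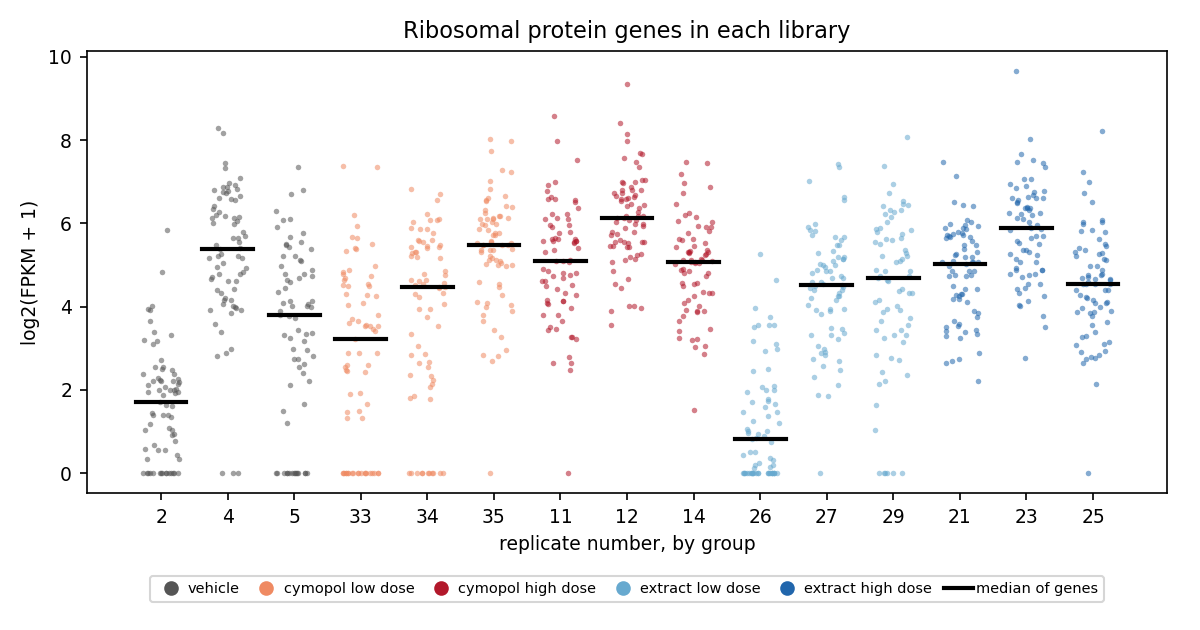
Level of each of the 73 standard ribosomal protein genes in each library, as log2(FPKM + 1); each point is a gene, black bars are medians over genes, colours are groups and the horizontal axis gives replicate numbers. Vehicle libraries 2 and 5, low-dose extract library 26 and low-dose cymopol library 33 hold many genes at 0, and the medians within the vehicle group run from 2.27 to 40.4 FPKM.

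The libraries also differed in depth and in where their fragments lay. Estimated fragments in protein-coding genes ran from 25233 to 556401 per library. The 4 lowest were vehicle libraries 2 and 5, low-dose extract library 26 and low-dose cymopol library 33. The same 4 had the lowest medians of the standard genes. Otherwise depth and median did not follow 1 order. High-dose extract library 25 had 279240 fragments and a median of 22.5 FPKM, and low-dose cymopol library 35 had 183362 and 44.0 FPKM. Vehicle libraries 2 and 5 and low-dose extract library 26 had 46.8%, 25.1% and 23.6% of their estimated fragments in loci that overlap no annotated gene, against 4.13 to 16.5% in the other 12. Markers of colon epithelium were found in all 15 libraries: 17 of 18 listed genes had values, and their summed level was 173, 1196 and 2998 FPKM in vehicle, 1627 to 3018 FPKM in the 6 high-dose libraries, 618 to 3197 FPKM in the low cymopol dose and 89.8 to 1987 FPKM in the low extract dose. Markers of lymphocytes (12 genes) summed to 758 FPKM in vehicle library 4 and to 0.758 to 115 FPKM in the other 14. Smooth muscle markers (9 genes) summed to 68.9, 976 and 308 FPKM in vehicle and to 38 to 1131 FPKM elsewhere, and adipocyte markers (10 genes) to 9.24, 644 and 24.4 FPKM in vehicle and to 6.46 to 484 FPKM elsewhere. The part of depth and of tissue makeup in the results below was not tested. In RNA of whole tissue, fewer cells of a type and less RNA per cell cannot be told apart.

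The rank and the share of the set do not depend on a library's overall scale. The median ribosomal protein gene stood at the 86.0 to 97.5 percentile of the genes tested in its library, lowest in vehicle library 5 and highest in high-dose cymopol library 12. The lowest percentiles, in vehicle libraries 5 and 2 and low-dose extract library 26, came where 51.2, 41.5 and 56.4% of tested genes were listed at 0. In high-dose cymopol library 12 that share was 7.39%. Low-dose cymopol library 33, with 50.5% at 0, stood at the 90.1 percentile. The part of zeros in the rank was not tested. The set took 1.05, 3.03 and 1.95% of all protein-coding FPKM in the vehicle libraries (2.01% ± 0.995, SD, n = 3). The share was 4.16% ± 1.10 in the high cymopol dose, 3.12% ± 0.915 in the low cymopol dose, 3.75% ± 0.806 in the high extract dose and 3.31% ± 0.215 in the low extract dose (SD, n = 3 each). The 3 high-dose extract libraries (3.16 to 4.67%) and the 3 low-dose extract libraries (3.11 to 3.54%) lay above all 3 vehicle libraries, whereas both cymopol groups overlapped them. The margin was narrow: vehicle library 4, the deepest of its group, stood at 3.03% and the lowest low-dose extract library at 3.11%. As a share of estimated fragments, in place of FPKM, the set took 0.581 to 1.25% in vehicle and 1.10 to 1.67% in the high-dose groups, so that the groups overlapped.

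Among the standard genes the median FPKM over the 15 libraries spanned 108-fold, from 1.63 for Rpl18 to 176 for Rpl41, with 56 of 73 between 10 and 100 FPKM. Rpl41, which encodes a very short basic peptide of the large subunit, was highest. Its level was 15.1, 285 and 162 FPKM in vehicle, 249, 340 and 177 FPKM in the high cymopol dose and 6.86, 129 and 270 FPKM in the low extract dose. Rplp1 (median 112 FPKM), Rpl35 (92.9), Rps29 (85.4) and Rps9 (76.2) followed, and Rpl23a (5.28), Rpl39 (5.48), Rpl35a (5.78) and Rpl37 (6.28) stood just above Rpl18 at the low end. Each of these genes spans a wider range over the 15 libraries than the steps between neighbours in this order. Part of that range is a library level that the genes share, and whether neighbours differ was not tested. The median of the medians was 34.9 FPKM for the 31 small-subunit genes and 23.7 FPKM for the 42 large-subunit genes. Across the 73 genes, which are not independent replicates, Spearman's rho between median FPKM and the exonic length of the gene was -0.37, a description only.

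**Figure D2:**
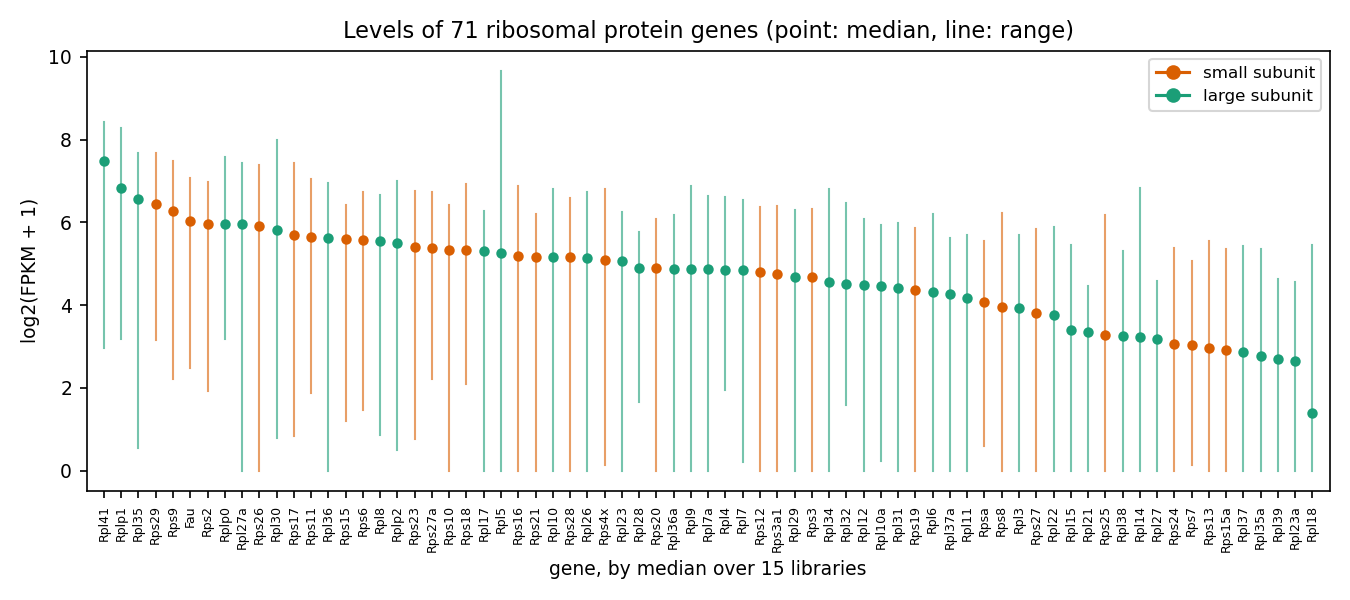
Level of 71 of the 73 standard genes as log2(FPKM + 1), ordered by median over the 15 libraries; points are medians, lines run from the lowest to the highest library and colours give the subunit. Rpl41 stands highest and Rpl18 lowest, Rpl5 reaches the highest single value, and most lines are longer than the distance between neighbouring points.

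The stalk of the large subunit, which recruits elongation factors, is formed by Rplp0 and dimers of Rplp1 and Rplp2. Rplp0 was 8.02, 92.7 and 45.6 FPKM in vehicle, 94.99, 190 and 87.3 FPKM in the high cymopol dose, 18.4, 58.6 and 84.5 FPKM in the low cymopol dose, 61.4, 119 and 55.9 FPKM in the high extract dose and 14.6, 61.9 and 58.3 FPKM in the low extract dose. Each treated group overlapped the vehicle. Its log2 difference from vehicle was 1.79 ± 1.25 (SE) in the high cymopol dose and 1.14 ± 1.25 (SE) in the high extract dose, with limma adjusted p = 0.524 and 0.732. Rplp1 was 8.12, 311 and 66.4 FPKM in vehicle, and 93.9, 280 and 173 FPKM in the high cymopol dose. Its log2 difference there was 1.53 ± 1.32 (SE, limma adjusted p = 0.603). Rplp2 was 8.99, 125 and 44.2 FPKM in vehicle and 73.5, 127 and 42.5 FPKM in the high cymopol dose, a log2 difference of 0.95 ± 1.39 (SE, limma adjusted p = 0.764). For all 3 stalk genes vehicle library 4 was the highest of its group and lay within or above the high-dose range.

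Rpsa, a small-subunit protein also known as the laminin receptor, and Fau, a fusion of a ubiquitin-like protein with Rps30, were the other genes always described. Rpsa was 0.503, 26.4 and 1.31 FPKM in vehicle and 23.3, 46.0 and 21.6 FPKM in the high cymopol dose. The log2 difference was 2.70 ± 1.23 (SE), and the limma p of 0.0356 became 0.356 after adjustment. Fau was 4.61, 116 and 12.2 FPKM in vehicle and 98.6, 126 and 125 FPKM in the high cymopol dose, a log2 difference of 2.50 ± 1.29 (SE, limma adjusted p = 0.403). For both genes vehicle library 4 again reached the treated range, and the other vehicle libraries did not.

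The paralogs were near the floor. The highest median among the 8 was 1.94 FPKM, for Rpl36al, against 28.4 FPKM for its partner Rpl36a. Rpl36al was listed at 0 in all 3 vehicle libraries, at 11.2, 1.94 and 1.81 FPKM in the high cymopol dose and at 2.27, 7.69 and 5.44 FPKM in the high extract dose. Both high-dose groups thus lay above the vehicle without overlap, yet the limma adjusted p was 0.327 and 0.349. These values of Rpl36al rest on an estimated 12.2, 0.905 and 1.07 fragments in the high cymopol dose. In the high extract dose they rest on 1.06, 10.5 and 10.2 fragments. Rpl22l1, the paralog of Rpl22, was 20.4 FPKM in vehicle library 4 and at most 4.88 FPKM in any other library. Rpl7l1 was at most 5.27 FPKM and Rps27l at most 5.00 FPKM. Rpl39l, known from testis, was listed at 0 in all 15 libraries, and Rpl3l and Rpl10l, known from muscle and testis, reached 1.45 and 1.09 FPKM at most. Rps27rt, Rpl10l, Rpl39l and Rpl3l fell under the level filter (at least 1 FPKM in at least 3 libraries) and were not tested, which left 78 of the 82. Paralogs and the many processed pseudogenes of this family share sequence with the standard genes, and how shared reads were assigned is not given in the sources used here.

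The comparison of each dose with the vehicle asks whether cymopol or the extract changed these mRNAs. No ribosomal protein gene passed the test (limma on log2(FPKM + 1) over 11496 genes, Benjamini-Hochberg adjusted p under 0.05) in any of the 4 vehicle comparisons or the 2 comparisons of doses. The background was 0.0174% of all genes called in the high cymopol dose, 0.0087% in the high extract dose and 0% in both low doses, and 0.0087% in each comparison of doses. With the smallest adjusted p at 0.19 for the set and a median standard error of 1.32 on the log2 scale, a doubling (1 on that scale) is smaller than 1 standard error.

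In the high cymopol dose 77 of 78 genes had a positive log2 difference from vehicle (79.5% of all genes did), with a median of 1.73, against 0.81 over all 11496 genes. The median was 1.92 for small-subunit and 1.60 for large-subunit genes. An unadjusted p under 0.05 was reached by 16 genes, all higher (20.5%, against 12.5% of all genes higher and 0.757% lower), and the groups did not overlap for 19 genes, all higher (24.4%, against 19.5% of all genes higher and 0.365% lower). The median rests on which vehicle libraries are used. Without vehicle libraries 2 and 5, the 2 with over 20% of fragments outside genes, it was 0.03 against 0.23 over all genes, and without vehicle library 4 it was 2.77 against 1.20. With median-of-ratios scaling it was 0.68 against 0.24, and with quantile normalization 1.18 against -0.04. The marker lists moved in the same comparison too, with medians of 1.91 for colon epithelium, 1.78 for adipocytes, 1.32 for smooth muscle, 0.93 for fibroblasts and -0.86 for lymphocytes, and their part in the result was not tested.

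Rpl35a, Rps3 and Rps21 had the smallest p in that comparison. Rpl35a (chr16:33056453-33060189), a large-subunit protein mutated in some patients with Diamond-Blackfan anaemia, was listed at 0 in all 3 vehicle libraries and at 8.69, 14.7 and 22.8 FPKM in the high cymopol dose. It was 9.50, 39.8 and 5.78 FPKM in the high extract dose, 0, 0 and 9.87 FPKM in the low cymopol dose and 0, 6.84 and 0 FPKM in the low extract dose. All 6 high-dose libraries lay above the vehicle, and 4 of the 6 low-dose libraries were at 0 with it. On the log2(FPKM + 1) scale the difference was 3.94 ± 1.10 (SE) in the high cymopol dose and 3.84 ± 1.10 (SE) in the high extract dose, with limma p of 0.00106 and 0.00137 and adjusted p of 0.190 and 0.268. The high-dose values rest on an estimated 4.59 to 54.1 fragments. Rpl35a had a row under its own identifier in no library, so all its values, zeros included, are those of a locus matched by position.

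Rps3 (chr7:99477896-99483738) sits at the entry of the mRNA channel and also acts in DNA repair. It was 0.267, 14.1 and 0 FPKM in vehicle, 26.3, 62.1 and 55.4 FPKM in the high cymopol dose, 33.3, 48.8 and 22.2 FPKM in the high extract dose, 10.7, 2.62 and 39.8 FPKM in the low cymopol dose and 2.98, 24.7 and 78.4 FPKM in the low extract dose. Only the high-dose groups cleared the highest vehicle library. The log2 difference was 4.10 ± 1.31 (SE, limma adjusted p = 0.243) in the high cymopol dose, 3.67 ± 1.31 (SE, limma adjusted p = 0.327) in the high extract dose and 2.91 ± 1.31 (SE, limma adjusted p = 1) in the low extract dose. Rps21 was 0, 34.9 and 0 FPKM in vehicle and 61.3, 66.7 and 64.1 FPKM in the high cymopol dose, a log2 difference of 4.30 ± 1.41 (SE, limma adjusted p = 0.255). Its 3 high-dose cymopol libraries lay close together, and vehicle library 4 held a little over 50% of their level, beside 2 libraries at 0.

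**Figure D3:**
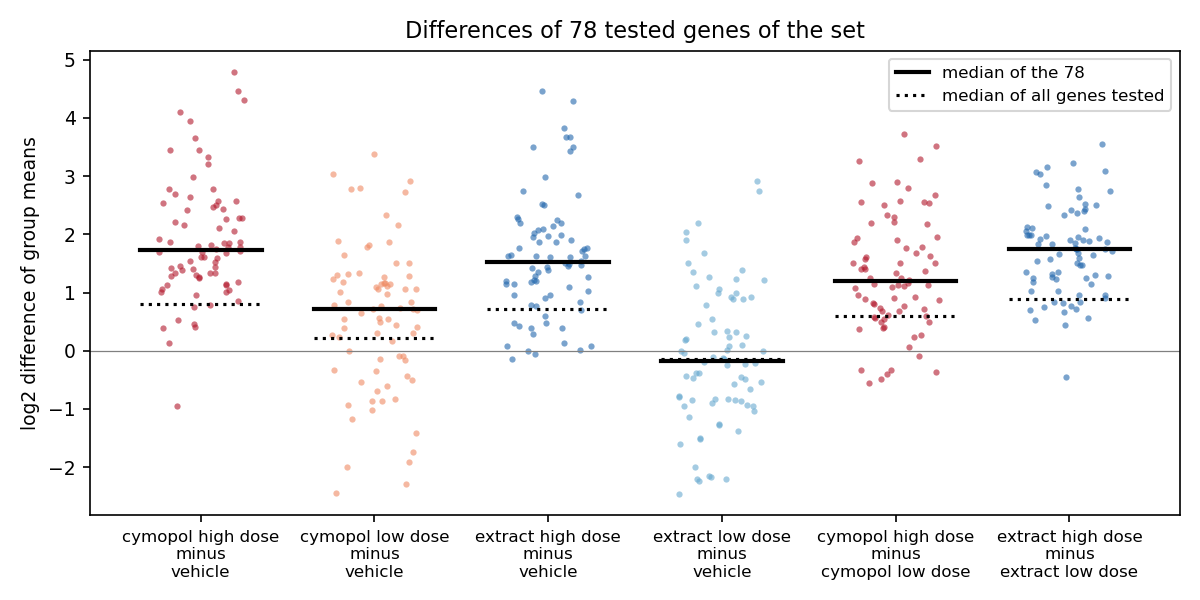
Log2 difference of group means for the 78 tested genes in each of 6 comparisons; each point is a gene, solid bars are medians of the 78 and dotted bars medians of all 11496 genes tested. The medians of the set lie at 1.73, 0.71, 1.52, -0.17, 1.20 and 1.74 from left to right, and the median of all genes is shifted the same way in each comparison.

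The high extract dose gave a like set of values against the same 3 vehicle libraries, which makes the comparisons with vehicle dependent on one another. Of 78 genes 75 had a positive difference (77.1% of all genes did), with a median of 1.52 against 0.71 over all genes. An unadjusted p under 0.05 was reached by 12 genes, all higher (15.4%, against 10.6% of all genes higher and 1.02% lower), and the groups did not overlap for 10 genes, all higher (12.8%, against 19.3% of all genes higher and 0.452% lower). Without vehicle libraries 2 and 5 the median was -0.27 against 0.14 over all genes, and without vehicle library 4 it was 2.49 against 1.09. It was 0.72 against 0.25 with median-of-ratios scaling and 1.09 against -0.05 with quantile normalization. The marker medians were 1.26 for colon epithelium, 0.96 for smooth muscle, 0.32 for fibroblasts, -0.19 for adipocytes and -1.43 for lymphocytes. Negative differences were found for 3 genes, among them Rpl34 (-0.14 ± 1.55, SE) and Rpl6. Rpl34 was 0, 49.1 and 111 FPKM in vehicle and 8.74, 28.6 and 13.5 FPKM in the high extract dose, so that the vehicle libraries lay on both sides of the treated ones.

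In the low doses the differences from vehicle were smaller. The median log2 difference in the low cymopol dose was 0.71 (0.23 over all genes), with 54 of 78 genes positive (58.9% of all genes). An unadjusted p under 0.05 was reached by 3 genes, all higher (3.85%, against 3.89% of all genes higher and 1.79% lower): Rpl15, Rps20 and Rpl7l1. Groups that did not overlap were found for 4 genes, all higher (5.13%, against 3.89% of all genes higher and 0.835% lower). Without vehicle libraries 2 and 5 the median was -1.31 (-0.29 over all genes), and it was 0.21 with median-of-ratios scaling and 0.47 with quantile normalization. Rpl15, a large-subunit protein with a long TOP run shown above, was 0, 6.06 and 0 FPKM in vehicle and 9.63, 43.0 and 16.3 FPKM in the low cymopol dose, a log2 difference of 3.39 ± 1.21 (SE, limma adjusted p = 0.748). Its 3 low-dose libraries all exceeded the vehicle. Rpl36a, Rpl34 and Rpl12 had the smallest p among negative differences there, and each was listed at 0 in low-dose cymopol libraries 33 and 34.

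In the low extract dose the median was -0.17 (-0.14 over all genes), with 34 genes positive and 44 negative (41.8% of all genes were positive). This sign depended on the scaling: the median was 0.20 with median-of-ratios scaling and 0.25 with quantile normalization, and it was 0.61 without vehicle library 4. Without vehicle libraries 2 and 5 and extract library 26 it was -1.04 (-0.23 over all genes). Rps3 alone had an unadjusted p under 0.05 (1.28%, against 1.11% of all genes higher and 2.8% lower). Groups did not overlap, with the extract lower, for Rpl7 and Rpl22 (2 of 78 genes, against 1.44% of all genes) and, with the extract higher, for 0 genes (against 1.23%). Rpl7 was 27.7, 71.8 and 23.9 FPKM in vehicle and 0.153, 21.6 and 10.8 FPKM in the low extract dose. Its log2 difference was -2.47 ± 1.26 (SE, limma adjusted p = 1).

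The log2 differences between doses do not use the vehicle libraries. Their standard errors and p-values do, because the fit shares a spread per gene over all 15 libraries. Between the cymopol doses the median log2 difference, high minus low, was 1.20 (0.60 over all genes), with 71 of 78 genes positive (76.8% of all genes). An unadjusted p under 0.05 was reached by 7 genes, all higher (8.97%, against 5.35% of all genes higher and 0.487% lower), and 9 genes did not overlap, all higher in the high dose (11.5%, against 9.75% of all genes higher and 0.818% lower). The median was 0.61 (0.25 over all genes) with median-of-ratios scaling and 0.80 (-0.02) with quantile normalization. Rpl12, a protein at the base of the stalk, had the smallest p. It was 16.7, 66.2 and 26.9 FPKM in the high dose and 0, 0 and 21.3 FPKM in the low dose, a log2 difference of 3.51 ± 1.36 (SE, limma adjusted p = 0.822). Cymopol low-dose library 35 alone reached the high-dose range, as it did for the median of the set.

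Between the extract doses the median was 1.74 (0.89 over all genes), with 77 of 78 genes positive (88% of all genes). An unadjusted p under 0.05 was reached by 11 genes, all higher (14.1%, against 7.09% of all genes higher and 0.191% lower), and 22 genes did not overlap, all higher in the high dose (28.2%, against 20.9% of all genes higher and 0.087% lower). The median was 0.58 (0.30 over all genes) with median-of-ratios scaling and 0.79 (-0.03) with quantile normalization. Rpl9 was 37.6, 96.8 and 24.4 FPKM in the high dose and 1.08, 28.1 and 0 FPKM in the low dose, a log2 difference of 3.54 ± 1.30 (SE, limma adjusted p = 0.638). Without low-dose extract library 26 the median over the set was 0.55 (0.45 over all genes), so that this library carried most of the difference. A test of whether the dose effect differed between cymopol and the extract called 0 of 78 genes by limma, with 0 at an unadjusted p under 0.05 and a smallest p of 0.0597.

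Only 8 of the 82 genes had a row under their own identifier in all 15 tables, and for these no assembled locus had to be matched to the gene. Of these 8, the 5 tested were Rplp1, Rpl35, Rps26, Rps28 and Rpl39. In the high cymopol dose their log2 differences from vehicle were 1.53, 2.11, 1.86, 2.48 and 0.86, with limma adjusted p from 0.453 to 0.753. In the high extract dose they were 1.62, 1.43, 1.62, 1.60 and 0.40, and in the low extract dose -0.38, 0.99, -1.60, 0.26 and -1.49. Rpl35 was 0.461, 136 and 103 FPKM in vehicle and 108, 203 and 72.8 FPKM in the high cymopol dose, so that 2 vehicle libraries lay within the treated range. The medians over these 5 genes were 1.86, 1.60 and -0.38 in that order, beside 1.73, 1.52 and -0.17 for all 78, of which they are part. They were 0.71 in the low cymopol dose (0.71 for all 78), 0.82 between the cymopol doses (1.20) and 1.89 between the extract doses (1.74). At the other end, 33 of the 82 genes had such a row in no table. Among them were Rplp0, Rpl35a, Rps3, Rpl15, Rpl7, Rpl12, Rpl9, Rpl5, Rpl30 and Rpl18. All values of these genes, zeros included, are those of assembled loci matched by position.

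The median of the standard genes in each library was subtracted to see how single genes vary beside the set. The residual SD on the log2 scale had a median of 1.13 over the genes, against 1.77 before. It was among the smallest for Rps3a1 (0.41), Rplp1 (0.45), Rps4x (0.49) and Rps18 (0.51), which followed the common level closely. It was largest for Rpl5 (2.42) and Rpl18 (2.33). Rpl18 was listed at 0 in 7 of the 15 libraries, among them vehicle library 4, high-dose cymopol library 11, high-dose extract library 25 and all 3 low-dose cymopol libraries, and reached 42.8 FPKM in high-dose cymopol library 12.

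Rpl5 (chr5:107900502-107909005), which binds 5S ribosomal RNA together with Rpl11 and, free of the ribosome, binds Mdm2, had both the widest range and the highest single value. It was 0.271, 19.2 and 24.8 FPKM in vehicle, 382, 645 and 27.2 FPKM in the high cymopol dose, 28, 809 and 295 FPKM in the high extract dose, 0, 103 and 253 FPKM in the low cymopol dose and 37.3, 164 and 6.19 FPKM in the low extract dose. High values occurred in all 4 treated groups and low ones beside them in the same groups. The log2 difference from vehicle was 4.45 ± 1.71 (SE) in each high dose, with limma adjusted p = 0.297 and 0.355. Rpl11, its partner, was 2.04, 26.7 and 0 FPKM in vehicle and 47.0, 44.9 and 28.8 FPKM in the high cymopol dose. In the low cymopol dose Rpl11 was 1.83, 2.44 and 31.95 FPKM, so that low and high values lay side by side there too. Its highest value in any library was 51.2 FPKM, against 809 FPKM for Rpl5. Its residual SD was 1.23, against 2.42 for Rpl5. The 382 FPKM of Rpl5 in high-dose cymopol library 11 rested on an estimated 14.3 fragments, or 26.7 FPKM per fragment, whereas the 94.99 FPKM of Rplp0 in that library rested on 307 fragments, or 0.309 FPKM per fragment.

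Rpl30 (chr15:34440505-34443640), a large-subunit protein, behaved alike. It was 0.723, 37.4 and 9.91 FPKM in vehicle, 182, 253 and 19.2 FPKM in the high cymopol dose, 20.4, 181 and 55.6 FPKM in the high extract dose, 162, 10.5 and 212 FPKM in the low cymopol dose and 1.40, 94.0 and 167 FPKM in the low extract dose. Its FPKM per estimated fragment ran from 1.86 in high-dose cymopol library 14 to 32.7 in low-dose extract library 29, among libraries with at least 5 estimated fragments. In the same 2 libraries Rplp0 had 0.460 and 1.37 FPKM per estimated fragment. Over all libraries, however, Rplp0 ran from 0.213 in low-dose extract library 26 to 4.65 in vehicle library 5. Rpl41 ran from 0.714 to 10.5 in the same 2 libraries. A wide range of this ratio between libraries was therefore not particular to Rpl30. The fragment numbers are themselves estimates from interval widths, and the lengths used by the quantifier were not analysed here, so what sets this ratio was not tested.

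**Figure D4:**
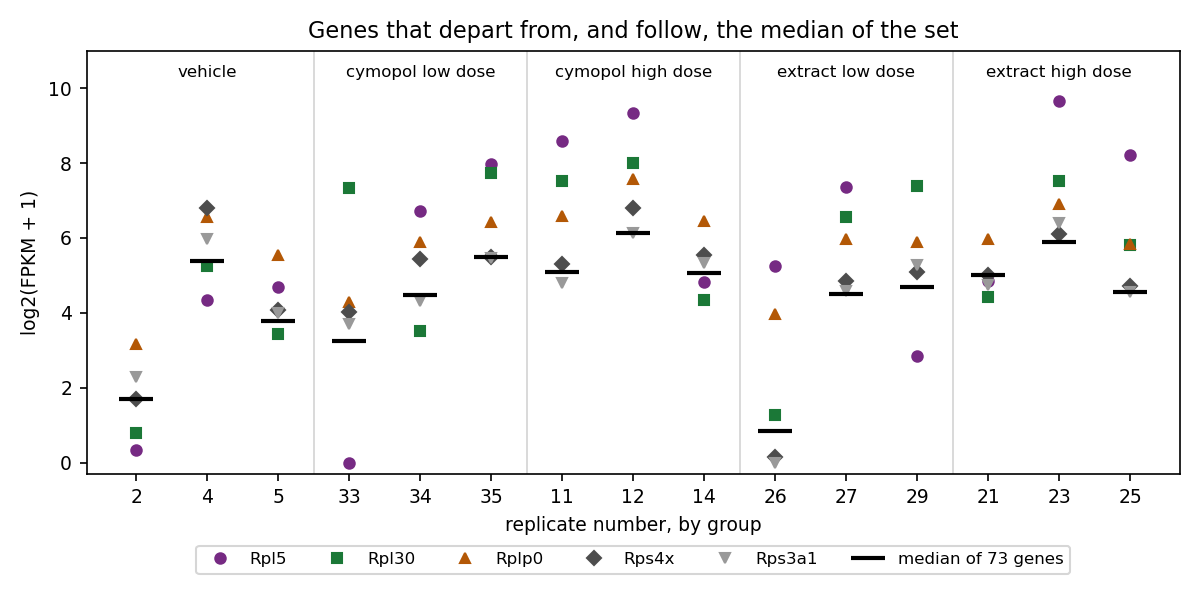
Level of Rpl5 and Rpl30, of Rplp0, Rps4x and Rps3a1, and of the median of the 73 standard genes (bars) in each library, as log2(FPKM + 1), with replicate numbers on the horizontal axis. Rps4x and Rps3a1 stay near the bars and Rplp0 above them, whereas Rpl5 and Rpl30 lie far above the bar in some libraries of a group and below it in others of the same group.

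Rpl5 and Rpl30 are both snoRNA hosts. In the GENCODE M21 annotation 28 of the 82 genes (34.1%) contained a snoRNA gene on the same strand, against 209 of 10664 protein-coding genes tested (1.96%). They held 53 snoRNA genes, 52 in introns, of which 18 had no row of their own in any of the 15 tables. Among these are Snord21 in an intron of Rpl5 and Gm24523 in an intron of Rpl30 (chr15:34440791-34440922). Rpl5 holds 3 snoRNA genes, of which only Snord21 had no row. Snord21 is a C/D box snoRNA, the class that guides 2′-O-methylation, and its 94 bases (chr5:107904555-107904648, plus strand) are shown because its host had the most uneven values. The C box (TGATGA) and the D box (CTGA) are in capitals.
Snord21: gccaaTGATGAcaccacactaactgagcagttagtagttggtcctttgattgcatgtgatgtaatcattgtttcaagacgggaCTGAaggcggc
Whether fragments of the intronic snoRNAs entered the values of their host genes was not tested. The residual SD had a median of 1.16 over the 28 standard hosts and 1.12 over the remaining 45 standard genes, a description only. Of the hosts, 16 of 28 had an own-identifier row in no table, against 17 of 45 others.

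Genes that build or regulate ribosomes were taken from lists of known pathway members. Of 45 ribosome assembly factors 41 were tested. By limma 0 passed in any comparison, and their median log2 difference from vehicle was 0.90 in the high cymopol dose and 0.62 in the high extract dose. An unadjusted p under 0.05 was reached by 6 genes that were higher and 1 that was lower in the high cymopol dose (6 and 1 of 41, against 12.5% and 0.757% of all genes). The lower one was Nop56, a core protein of C/D box snoRNPs, at 3.23, 82.5 and 41.8 FPKM in vehicle and listed at 0 in all 3 high-dose cymopol libraries (limma adjusted p = 0.190). The groups did not overlap, in the direction opposite to that of most ribosomal protein genes. Nop56 was also low in the high extract dose (0, 0 and 1.33 FPKM). It was 0, 0 and 33.1 FPKM in the low extract dose and 9.80, 30.9 and 7.75 FPKM in the low cymopol dose. Gar1, a core protein of H/ACA snoRNPs, was listed at 0 in all 3 vehicle libraries and at 16, 10.5 and 8.61 FPKM in the high cymopol dose (limma adjusted p = 0.190). Sbds, which releases eIF6 from the large subunit, was 0.285, 0 and 0 FPKM in vehicle and 7.93, 18.3 and 8.63 FPKM in the high cymopol dose (limma adjusted p = 0.254).

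Of 25 further genes whose mRNAs are known to carry the TOP motif, chiefly translation factors, 23 were tested and 0 passed limma's adjusted threshold in any comparison. Their median log2 difference from vehicle was 1.65 in the high cymopol dose, 1.18 in the low cymopol dose, 1.49 in the high extract dose and -0.07 in the low extract dose, beside 1.73, 0.71, 1.52 and -0.17 for the ribosomal protein genes. In the high cymopol dose 3 of the 23 had an unadjusted p under 0.05, all higher (against 12.5% of all genes). Among 27 genes of translational control, such as those of the mTOR and eIF2B pathways, the medians were 0.66, 0.46, 0.70 and -0.24 in the same order, and 0 passed. With an unadjusted p under 0.05, 4 of these 27 were higher in the high cymopol dose (against 12.5% of all genes). Eif2b2, a subunit of the exchange factor for eIF2, was listed at 0 in all 3 vehicle libraries and at 13.8, 25.5 and 15 FPKM in the high cymopol dose (limma adjusted p = 0.190).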

How the data were processed

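The deposited tables hold FPKM with an interval, 1 library each. The authors made these FPKM values from reads aligned with STAR 2.4.0j to GRCm38.p4, per the submitters' processing notes, after ribosomal RNA depletion of 90 ng total RNA, per the labels' protocols. The columns are those of a Cufflinks tracking table, per the file headers. The sources used here give neither its version and settings nor the gene annotation.

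A gene's value was that of its own identifier or, where a library had none, that of the assembled locus that was its mutual best match by position with a shared span of at least 0.5 of the joint span (bedtools 2.31.1, GENCODE M21, strand unknown). This departs from the plan, which had own-identifier rows as the main values and matched loci as the alternative. The 2 were exchanged after seeing that own-identifier rows hold 0.234 to 2.67% of all FPKM and leave 8 ribosomal protein genes, 5 of them tested. Fragments were estimated as the square of 2·FPKM divided by the width from FPKM to the upper bound; estimates under 0.5 beside an FPKM of at least 1 (0 to 17 genes of the set per library) show intervals wider than counting allows. Depth is therefore approximate.

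The genes valued in every library and at 1 FPKM or more in at least 3 were fitted on log2(FPKM + 1) with limma 3.58.1 (R 4.3.3, intensity trend), 1 mean per group, two-sided, with Benjamini-Hochberg adjustment over 11496 genes in each of 6 comparisons. The pseudocount understates the change of low genes. The fit was tested on simulated data. With 3 libraries a side the smallest exact permutation p is 0.1. The genes and lists were chosen with earlier results of these data known. Genes named are Rpsa, the stalk genes, Fau, paralogs, the 5 highest and lowest by median, the smallest p per comparison and direction, and list genes with the smallest p; Rps3a1, Rps4x, Rps18, Rpl30 and Rpl11 were named after their values were seen. A few genes are counted but not reported here by name. Alternatives were another pseudocount, no filter, 2 scalings, zeros as missing, fits of 2 groups, single libraries left out and, chosen after seeing the data, own-identifier rows alone and leaving out 3 libraries with over 20% intergenic fragments.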

Additional observations from a re-analysis of the deposited data

How the results depend on the processing

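The count of ribosomal protein genes passing limma's threshold was 0 in all 84 alternative counts, and the lowest adjusted p of a named gene was 0.09. With single libraries left out, the median log2 difference ran from 0.92 to 2.77 (cymopol high dose), -0.03 to 1.29 (cymopol low dose), 0.63 to 2.49 (extract high dose) and -1.04 to 0.87 (extract low dose) against vehicle, from 0.65 to 1.86 between cymopol doses and from 0.55 to 2.26 between extract doses. Without the 3 libraries with over 20% intergenic fragments, which leaves 1 vehicle library assumed to vary like the other groups, it was 0.029, -1.31 and -0.27 in the cymopol high, cymopol low and extract high dose, and -1.04 in the extract low dose. Using own-identifier rows alone, the mean share of protein-coding FPKM was 9.42% in vehicle, 11.5% in the cymopol high dose, 12.8% in the cymopol low dose, 12.3% in the extract high dose and 11.5% in the extract low dose, since few other genes have such rows.

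Of 401 values of named genes under alternatives, 17 had the opposite sign. With listings at 0 as missing they were Rpl36a (1.36) and Rpl12 (1.07) in the cymopol low dose, Rps21 in the extract low dose (-1.25) and Rpl36a between cymopol doses (-0.35). With pseudocount 0.1, Rpl34 and Rpl6 in the extract high dose were 0.89 and 0.17. With single libraries left out, Rpl34 ran from -2.21 (without vehicle library 2) to 1.19 (without vehicle library 5) and Rpl6 from -1.52 (without vehicle library 2) to 0.99 (without vehicle library 4). Rpl34 was also positive without vehicle library 4 (0.61) or extract library 21 (0.22), and Rpl6 without vehicle library 5 (0.50) or extract library 25 (0.39). Rpl22l1 in the cymopol high dose ran from -1.73 to 0.48 (without vehicle library 4), and Rpl15 between cymopol doses from -0.86 to 0.17 (without library 34). Rpl18 between extract doses ran from -2.12 to 1.00 (without library 25), and was 0.33 and 0.45 without libraries 27 and 29. For those not built on fewer samples the cause was not tested. No paired analysis was possible because the groups share no replicate numbers.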
